A study of Mus musculus with 16 samples.

Results

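The alleles described here are the single-base changes of mt-Nd5, the mitochondrial gene of ND5, read by ATAC-seq in sorted cells of mouse femurs. They are all rows of the deposited non-reference counts from the base after the tRNA gene TrnL2, which ends at position 11741 of the GRCm38 mitochondrial sequence, to the base before ND6, which starts at position 13552 on the opposite strand. The last 14 bases of ND5, up to position 13565, overlap ND6 and were left out. Each of the 1810 positions has 3 possible non-reference bases, which gives 5430 alleles of 48897 in the whole mitochondrial genome, and 11.1% of its 16299 positions. All 16 libraries came from mice homozygous for the D257A allele of PolG, aged 3 months, and no library of another genotype or age is used here. There were 8 subsets, each with replicates 2 and 1, named in the labels by surface markers: CD24, CD29, CD24_CD29, CD105, Thy, 6C3, Thy_6C3 and CD45, the last a marker of blood cells. The labels give all of them the cell type of skeletal cells, and give neither gates, nor mice, nor pooling, so libraries of a replicate number may share animals and a p-value here speaks of the spread between libraries, which may be technical. Only mitochondrial DNA counts are used here, so the cell type labels could not be set against marker genes.

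ND5 is the largest of the complex I subunits that mitochondrial DNA encodes. Complex I is the first enzyme of the respiratory chain: it passes electrons from NADH to ubiquinone and pumps protons out of the matrix. ND5 is one of its antiporter-like membrane subunits, which carry the proton paths, and it sits at the far end of the membrane arm. PolG copies mitochondrial DNA, and the D257A allele removes its proofreading, so copying errors stay in the daughter molecules. A cell holds many copies of mitochondrial DNA, so an allele fraction in a sorted subset is a mean over the copies of many cells, and a few cells with many mutant copies cannot be told apart from many cells with a few. The tables give counts per position, so they do not show which alleles lie on the same molecule.

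Allele names give the base in the reference, its position and the base that replaced it, and protein changes give the reference residue, the codon counted from the start codon, and the changed residue, read with the vertebrate mitochondrial code. An allele was counted in a library where its fraction, the allele's count over the coverage at its position, was 1% or more with at least 5 counts. The sequences below are shown because they hold the 8 alleles that all 8 libraries of 1 number carried at the threshold or above, or the stop allele K547*. They are the reference bases of the deposited tables on the forward strand of the GRCm38 mitochondrial chromosome MT, and capitals mark the positions of these alleles and of neighbouring alleles counted in at least 2 libraries.
Codons W68 to E75, MT:11934-11973, with T11943C, C11959T and G11964A: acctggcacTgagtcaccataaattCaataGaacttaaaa
Codons M108 to P112, MT:12056-12085, with A12065T, C12066T, T12069C and C12076T: atgatatatACacTcagaccCaaacatcaa
Codon L229, MT:12418-12438, with C12428T: aatttggcctCcacccatgac
Codon F258, MT:12505-12525, with C12515T: caggaattttCctactggtcc
Codon M451, MT:13084-13110, with T13093A and A13101G: cagacctcaTaaacccaAtcaaacgcc
Codons G497 to I500, MT:13223-13250, with A13232G, T13233C and C13241A: agtattaggATtcctaatCgcactagaa
Codon K547, MT:13370-13390, with A13380T: cctaagcctaAaaacatccct
In the first window, T11943C lay 16 bases before C11959T, and C11959T lay 5 bases before G11964A. In the second, A12065T, C12066T, T12069C and C12076T lay 1, 3 and 7 bases apart. T13093A lay 8 bases before A13101G.

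ND5 was read at a mean coverage of 7591 counts per position in the shallowest library, CD24_CD29 replicate 2, and 92140 in the deepest, CD29 replicate 1. A count of 0 therefore allows a fraction of up to 0.0395% and 0.00326% in these libraries, at 3 counts of the mean coverage. Without molecular identifiers, intervals and such limits speak of counting error alone. Over all libraries, 418 ND5 alleles were counted at least once, but 302 were counted in Thy replicate 2, against 11 to 42 in the other 15 libraries. A>C and T>G changes made up 267 of these 302, and every other library had at most 4 of them. This library stood apart in the same way across the genome, with 2178 A>C or T>G alleles, of which ND5 held 12.3%. Counts of ND5 alleles are therefore also given for the 15 other libraries, where 132 ND5 alleles were counted of 1130 in the genome (11.7%).

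The alleles at the highest fractions in ND5 were missense changes in the replicate 2 libraries. Of the 4 ND5 alleles counted in all 8 libraries of replicate 2, all were missense, and of the 5 counted in all 8 of replicate 1, 3 were missense and 2 synonymous. 1 allele, C13241A, was in both groups. Over both numbers 6 of the 8 alleles were missense (75.0%), near the 72.2% of all possible ND5 changes. C11959T, which turns serine 73 into leucine (S73L), had 18.4%, 23.1% and 24.9% as its lowest, median and highest fraction in replicate 2 libraries, against 0.120%, 0.169% and 0.724% in replicate 1 libraries. The groups did not overlap. Within replicate 2, the exact (Clopper-Pearson) 95% interval of Thy_6C3 cells, the lowest at 17.8% to 19.0%, lay apart from that of 6C3 cells, the highest at 24.4% to 25.3%. Within replicate 1, Thy cells (0.724%) and CD29 cells (0.450%) were above the other 6 subsets, the highest of which was Thy_6C3 at 0.246%.

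T13093A, which puts a charged lysine in place of methionine 451 (M451K), had 6.37%, 6.97% and 10.2% in replicate 2 libraries, against 0.157%, 0.240% and 0.317% in replicate 1 libraries. It was highest in CD24_CD29 cells (10.2%, interval 9.64% to 10.9%) and Thy_6C3 cells (9.17%, interval 8.78% to 9.57%) of replicate 2, and these intervals lay above those of CD24, CD45 and 6C3 cells, whose fractions were 6.37% to 6.45%. G11964A, which turns the acidic glutamate 75 into the basic lysine (E75K), had 2.16%, 3.29% and 4.23% in replicate 2 libraries, against 0.00631%, 0.0183% and 0.154% in replicate 1 libraries. The lowest of these replicate 1 values, in Thy cells, was 2 counts of 31699. CD24_CD29 cells had the lowest E75K fraction of replicate 2, and CD105 cells the highest. Neither M451K nor E75K had groups that overlapped.

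The replicate 1 libraries carried another set. C12066T, which turns histidine 109 into tyrosine (H109Y), had 0.0217%, 0.231% and 0.415% in replicate 2 libraries, against 1.90%, 3.46% and 4.16% in replicate 1 libraries. The synonymous C12428T in codon 229 (L229L) had 0%, 0.135% and 0.274% in replicate 2 libraries, against 2.62%, 2.98% and 4.42% in replicate 1 libraries. The count of 0 was in CD24_CD29 replicate 2, at a coverage of 6970, with an exact 95% upper bound of 0.0529%. The synonymous C12515T in codon 258 (F258F) had 0.0113%, 0.121% and 0.354% in replicate 2 libraries, against 1.96%, 2.51% and 3.90% in replicate 1 libraries. All 3 had replicate groups that did not overlap. The subset with the lowest or highest fraction differed between these alleles. In replicate 1, CD24_CD29 cells were lowest for H109Y, at 1.90%, and next to highest for F258F, at 3.86%, where CD24 cells had 3.90%, while CD29 cells were highest for L229L, at 4.42%, and lowest for F258F, at 1.96%.

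**Figure D1:**
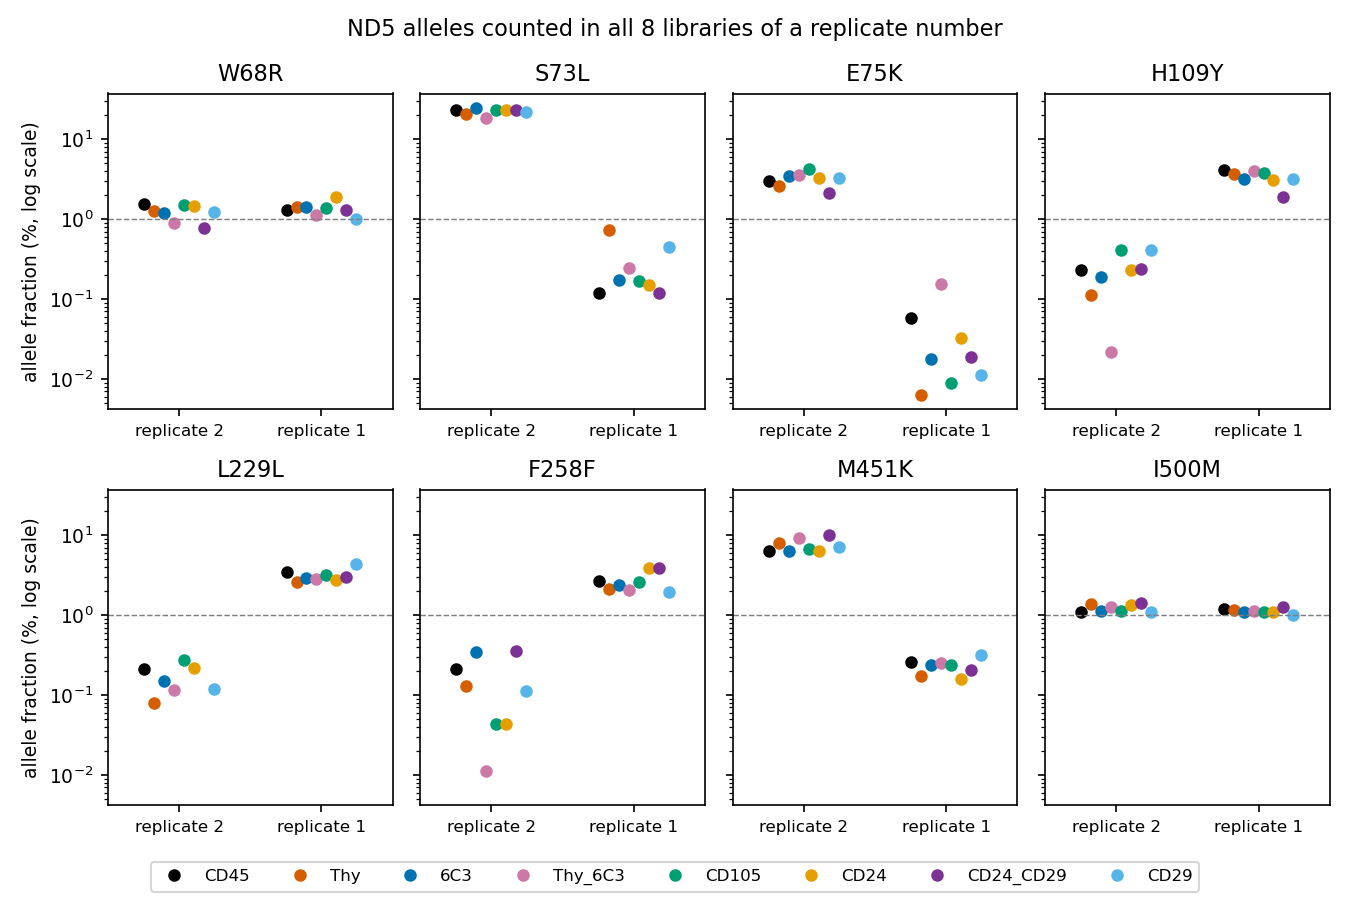
Fractions of the 8 ND5 alleles that were counted throughout replicate 2 or throughout replicate 1, 1 panel per allele, with the allele fraction in percent on a log scale, replicate 2 left of replicate 1, and 1 point per library coloured by subset. The dashed line is the 1% threshold. S73L, E75K and M451K stand above it in replicate 2, H109Y, L229L and F258F in replicate 1, and W68R and I500M lie near it in both. A fraction of 0, as for L229L in CD24_CD29 replicate 2, cannot be drawn on this axis.

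A few alleles lay near 1% in libraries of both replicate numbers. C13241A, which turns isoleucine 500 into methionine (I500M), had 1.11%, 1.20% and 1.41% in replicate 2 libraries, against 1.02%, 1.13% and 1.27% in replicate 1 libraries. Their means were 1.23% ± 0.128 in replicate 2 and 1.14% ± 0.0733 in replicate 1 (SD, n = 8 each), and the ranges overlapped. T11943C, which turns tryptophan 68 into arginine (W68R), averaged 1.24% ± 0.289 in replicate 2 and 1.36% ± 0.256 in replicate 1 (SD, n = 8 each), and was counted in 6 and 8 libraries. A12186C (I149L) averaged 1.31% ± 0.842 in replicate 2 and 1.02% ± 0.0723 in replicate 1 (SD, n = 8 each), and was counted in 5 libraries of each. Its highest value, 3.38%, was in Thy replicate 2, and the next of replicate 2 was 1.13%. None of these 3 passed the edgeR test between the replicate numbers, with log2 odds ratios of 0.11, -0.16 and 0.20 and adjusted p of 0.802, 0.757 and 0.746.

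Stop codons were among the counted alleles. Of 275 single-base changes that would create a stop in this stretch, 7 were counted in the 15 libraries without Thy replicate 2, and 2 were counted in at least 2 libraries of the 16. Stops were 5.3% of the 132 ND5 alleles counted in those 15 libraries, near their 5.06% of all possible changes. A13380T, which makes codon 547 a stop (K547*) and would remove the last 61 of the 607 residues, had 0.119%, 0.166% and 0.393% in replicate 2 libraries, against 0.934%, 1.39% and 3.75% in replicate 1 libraries. It was counted in 6 of the 8 replicate 1 libraries and in no replicate 2 library. CD24_CD29 cells had the highest replicate 1 fraction (3.75%, interval 3.45% to 4.07%), and the next was Thy cells at 1.66%. G11919T, a G>T change that makes codon 60 a stop (E60*) and would remove 548 residues, averaged 0.882% ± 0.261 in replicate 2 and 0.866% ± 0.106 in replicate 1 (SD, n = 8 each), with an edgeR adjusted p of 0.988. It was counted in 1 library of each number, and its highest value was 1.5% in Thy replicate 2.

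Replicate 2 was then compared with replicate 1 for each allele, with edgeR's quasi-likelihood test on the non-reference and reference counts, a term per subset, and p-values adjusted over all 3487 alleles counted in the genome. This asks which ND5 alleles separated the 8 libraries of each number beyond the spread among them. All 418 counted ND5 alleles were tested, and 27 were called at an adjusted p under 0.05 (6.46%), against 5.82% of all alleles tested. Of these, 12 were higher in replicate 2 (2.87%, against 3.07% of all) and 15 were lower (3.59%, against 2.75% of all). The median log2 odds ratio over the ND5 alleles tested was 0.32, against 0.32 over all alleles tested. Without Thy replicate 2 these medians were 0.0289 and 0.135. Without Thy replicate 2, 24 of 132 ND5 alleles were called (18.2%), against 17.3% of all, with 9 higher and 15 lower in replicate 2. The ND5 shares were thus near those of the genome.

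The 27 called alleles were 19 missense (70.4%), 7 synonymous and 1 stop, and 21 were transitions (77.8%). Of the 418 ND5 alleles tested, 73.0% were missense and 23.7% transitions, and of the 132 counted without Thy replicate 2, 62.1% were missense and 72.7% transitions. In 15 of the called alleles the 2 replicate numbers did not overlap (3.59% of the ND5 alleles tested, against 3.58% of all). S73L was higher in replicate 2, with a log2 odds ratio of 7.03 (edgeR adjusted p = 6.35e-08, higher in 8 of 8 subsets), as were E75K (7.04, adjusted p = 3.22e-07, 8 of 8) and M451K (5.15, adjusted p = 7.34e-08, 8 of 8). L229L was lower in replicate 2, at -4.67 (edgeR adjusted p = 6.11e-06, lower in 8 of 8 subsets), with F258F at -4.62 (adjusted p = 1.51e-05), H109Y at -4.16 (adjusted p = 1.92e-05) and K547* at -3.02 (adjusted p = 2.36e-05), each lower in 8 of 8. A13011C (M424L) was also lower, at -4.59 (edgeR adjusted p = 1.88e-05), with a mean of 0.0905% ± 0.136 in replicate 2 and 1.40% ± 0.652 in replicate 1 (SD, n = 8 each). T13267C (M509T) averaged 0.192% ± 0.0857 in replicate 2 and 1.09% ± 0.322 in replicate 1, and C12076T (P112L) 0.339% ± 0.251 in replicate 2 and 1.17% ± 0.190 in replicate 1 (SD, n = 8 each). Both were lower in replicate 2, with log2 odds ratios of -2.58 and -2.11 (edgeR adjusted p = 2.78e-05 and 0.00550). P112L was called under 23 of 24 alternatives in which it was tested, and the other 9 alleles named here under every one. Each of these alleles reached 1%, and so entered the test, only in libraries of the number where it was higher. The comparison was also chosen with earlier results of these data known, in which libraries of a number shared alleles. The calls, their direction in 8 of 8 subsets and the lack of overlap are thus no independent support for a difference between the numbers.

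**Figure D2:**
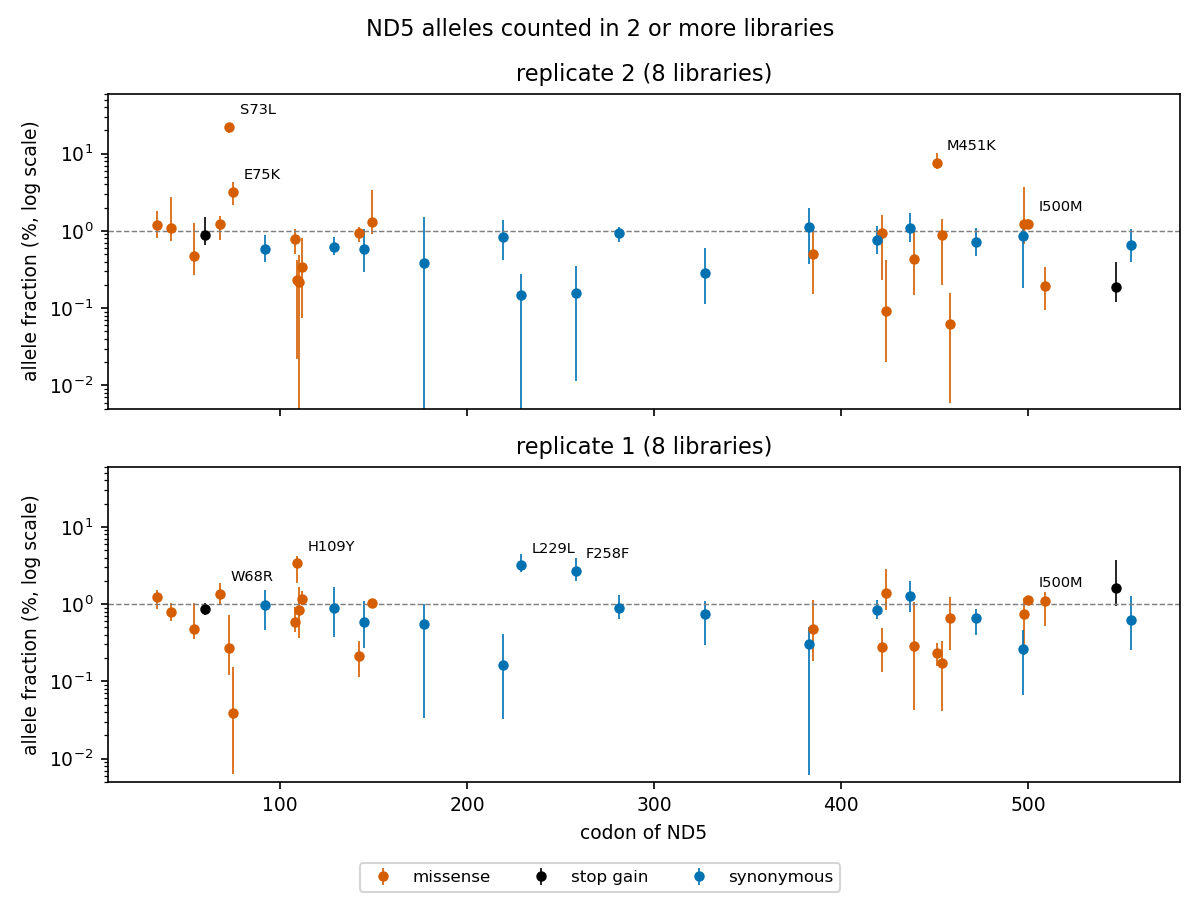
Fractions of the 39 ND5 alleles counted in at least 2 libraries, by codon of ND5 on the horizontal axis and allele fraction in percent on a log scale on the vertical axis, replicate 2 above replicate 1. Points are means of 8 libraries, lines reach from the lowest to the highest library (those that meet the lower edge go on to smaller values or 0), colours give the effect on the protein, and labels mark alleles counted in all 8 libraries of a number. S73L at 22.4% and M451K at 7.57% stand out in replicate 2, and H109Y, L229L and F258F at 2.71% to 3.39% in replicate 1.

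Most counted ND5 alleles belonged to 1 library of their number: 352 of the 370 counted in replicate 2, and 45 of the 64 counted in replicate 1. The same count was not made over the genome, so it is not shown to be particular to ND5. In replicate 2, 290 of the 352 were from Thy cells. CD24_CD29 cells had the most in both numbers once that library is set aside, with 34 of 42 counted alleles in replicate 2 and 26 of 38 in replicate 1 counted in no other library of the number, against 0 to 14 in the other libraries. Across the genome they also had the most counted alleles of each number with that library set aside, 416 and 280, of which ND5 held 10.1% and 13.6%. CD24_CD29 replicate 2 was also the shallowest library, at a mean ND5 coverage of 7591, and CD24_CD29 replicate 1 was the shallowest of replicate 1, at 16241. The part of depth in this was not tested. A fraction of 1% still stood for 76 and 162 counts there.

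Some alleles that a single library of their number held at 1% or more stood well above the threshold. G12521A, synonymous in codon 260, had 2.86% in CD24_CD29 replicate 2 (interval 2.51% to 3.24%), where the other 7 libraries of the number had at most 0.0761%. C11794T (P18L) had 3.42% in CD24_CD29 replicate 1 (interval 3.14% to 3.72%), and at most 0.668% in the other 7. In Thy replicate 2 the highest was T12894G (F385V), at 2.93%, a T>G change of a kind in excess throughout that library. Its highest such allele other than A>C and T>G changes had 1.60%. In the other libraries the highest were below those of CD24_CD29 cells: C12775T (S345L) had 1.76% in Thy_6C3 replicate 2, G12178A (G146E) 1.5% in CD29 replicate 2, and A12482T, synonymous in codon 247, 1.44% in Thy replicate 1. T13404C had 1.26% in 6C3 replicate 1, C12581T 1.19% in CD29 replicate 1, A12462G 1.15% in CD24 replicate 1 and A12332G 1.13% in CD24 replicate 2. C11889T had 1.06% in Thy_6C3 replicate 1, A12176G 1.06% in 6C3 replicate 2 and T11865G 1.03% in CD45 replicate 1. T11865G, A12176G and T13404C were also counted in 1 library of the other number, T11865G at 2.74% in Thy replicate 2, A12176G at 1.09% in CD24 replicate 1 and T13404C at 1.05% in CD29 replicate 2, while the others named here had at most 0.894% in the other number. CD45 replicate 2, CD105 replicate 2 and CD105 replicate 1 had none.

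**Figure D3:**
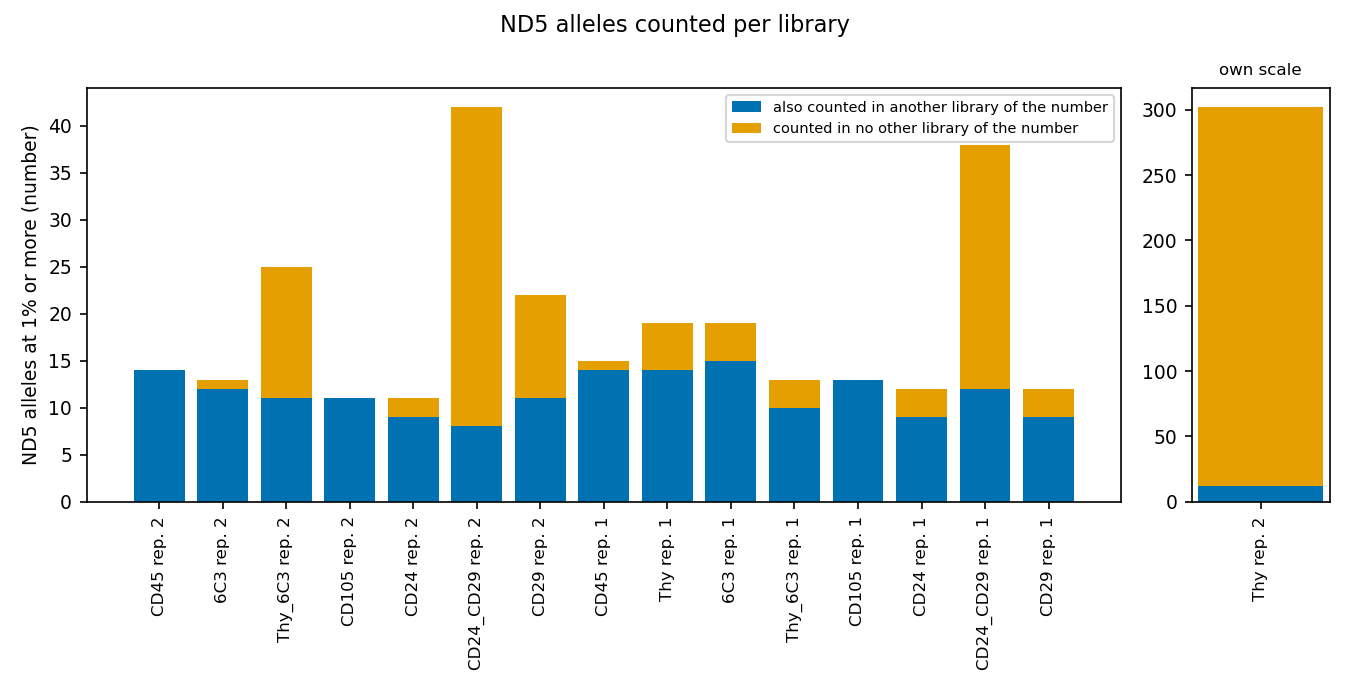
Number of ND5 alleles at 1% or more in each library, replicate 2 left of replicate 1, with Thy replicate 2 drawn apart on its own scale. Blue is the part also counted in another library of the same number and orange the part counted in no other. CD24_CD29 cells reach 42 and 38, Thy replicate 2 reaches 302, and the other libraries lie between 11 and 25.

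The kinds of change are described in the 15 libraries without Thy replicate 2. Of the 132 alleles counted there, 96 were transitions (72.7%), against 33.3% of all possible changes in ND5. Of the possible C>T changes 7.30% were counted (36 of 493), of T>C 5.62% (29 of 516), of A>G 4.03% (25 of 621) and of G>A 3.33% (6 of 180). Of A>T changes 2.09% were counted, of C>A 1.62%, and of every other transversion at most 1.11%. The forward strand of ND5 is poor in G, which makes up 9.94% of its bases, against 34.3% A.

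**Figure D4:**
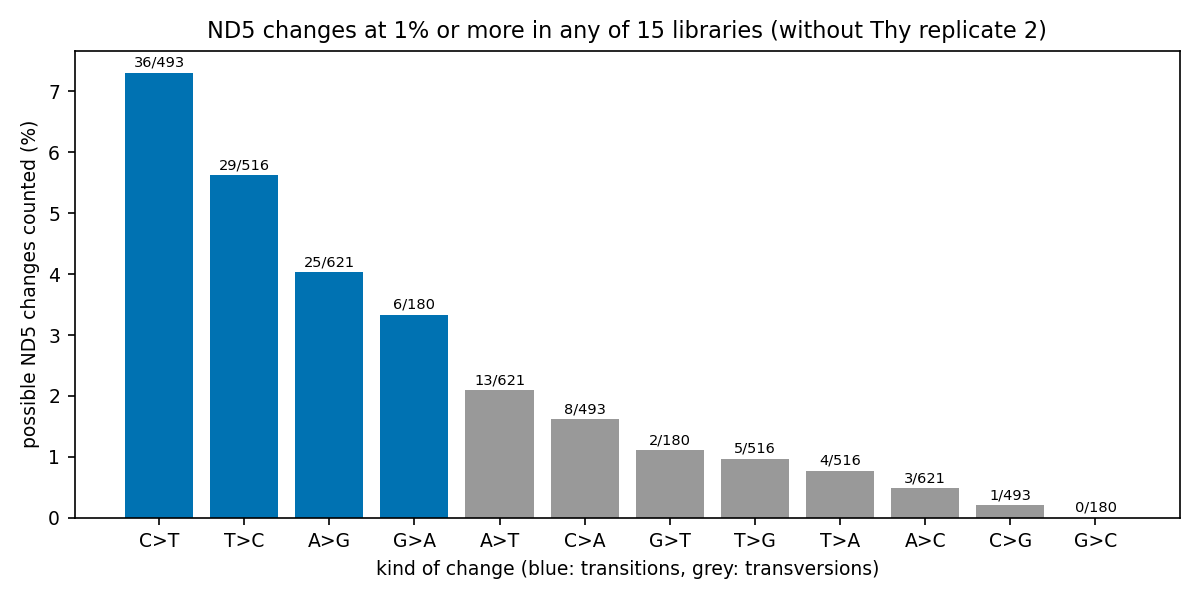
Share of the possible ND5 changes of each kind that were counted in any of 15 libraries, in percent, with the numbers counted and possible above each bar. Blue bars are transitions and grey bars transversions. C>T is highest at 7.30%, and all 4 transitions are above every transversion.

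The counted transitions were missense and synonymous in shares close to those of the possible transitions. Of the 96, 57 were missense (59.4%) and 37 synonymous (38.5%), where the possible transitions were 59.4% missense and 36.9% synonymous. By kind, 8.62% of possible missense C>T changes were counted (20 of 232), against 6.02% of synonymous ones (15 of 249), and 5.53% of missense T>C changes (21 of 380), against 5.93% of synonymous ones (8 of 135). For A>G the shares were 3.26% of missense (11 of 337) and 5% of synonymous changes (13 of 260). No test was made of these shares. Over all sites, counted or not, the mean T>C fraction at missense sites was 20.1 ± 4.46 per 10000 in replicate 2 and 19.5 ± 5.77 in replicate 1, and at synonymous sites 19.8 ± 4.71 in replicate 2 and 19.8 ± 6.10 in replicate 1 (SD, n = 8 libraries each). For C>T the mean at missense sites was 21.4 ± 0.887 per 10000 in replicate 2 and 13.8 ± 1.83 in replicate 1, against 9.55 ± 1.16 and 11.6 ± 1.29 at synonymous sites. C11959T alone is 1 of those 232 missense sites: the median site, which a single allele hardly moves, had 4.97 ± 1.58 per 10000 in replicate 2 and 6.05 ± 2.0 in replicate 1, against 3.82 ± 1.40 and 4.09 ± 1.46 at synonymous sites.

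No ND5 allele was called between the sorted subsets by edgeR, over all 8 subsets at once or for any subset against the mean of the other 7, and 0% of all alleles tested in the genome were called in each of these 9 tests. They had no term for the replicate number. An unadjusted edgeR p under 0.05 was found for 219 of the 418 ND5 alleles for Thy (52.4%, against 48.8% of all alleles tested) and for 23 for CD24_CD29 (5.5%, against 6.28% of all). It was found for 7 for Thy_6C3 (1.67%, against 3.13%), 7 for CD29 (1.67%, against 0.889%), 4 over all subsets (0.957%, against 1.49%) and 3 for 6C3 (0.718%, against 0.43%). CD24 had 2 (0.478%, against 1.2%), CD45 had 1 (0.239%, against 0.115%) and CD105 had 0 (against 0.172%). The large number for Thy rests on 1 library: 290 alleles were counted in Thy replicate 2 and in no other library of its number. Most ND5 alleles entered the tests through that library, 418 with it and 132 without it. Calls for Thy by any tool are thus no independent support for a Thy difference. The median ND5 log2 odds ratio for Thy was 1.37 (1.33 over all alleles), and -0.0645 (-0.135 over all) without Thy replicate 2. Other tools called some ND5 alleles. For Thy, DESeq2 called 258 ND5 alleles (61.7%, against 58.1% of all), a quasi-binomial model 267 (63.9%, against 60.3% of all) and edgeR on the non-reference counts with coverage as an offset 287 (68.7%, against 66.4% of all). For CD24_CD29, DESeq2 called 5 (1.2%, against 2.04% of all), the quasi-binomial model 1 (0.239%, against 0.258%) and the offset 17 (4.07%, against 4.22%). Without Thy replicate 1, which leaves Thy replicate 2 as the only Thy library and assumes that it varies like the other groups, edgeR called 284 ND5 alleles over all subsets (68.8%, against 66.5% of all), 290 for Thy (70.2%, against 69.2%) and 22 for CD24 (5.33%, against 6.16%). In each of these but the DESeq2 calls for CD24_CD29, the ND5 share was near that of the genome.

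The ND5 alleles with the smallest p in each contrast were picked for that p, and their values are given as description. A13383C (T548P) had 1.11% and 0.435% in Thy replicates 2 and 1, where the other 7 subsets averaged 0.205% and 0.133% (edgeR adjusted p = 0.0985, but called by the other 3 models). It was above every other library of its number in both. A13383C is an A>C change, of a kind in excess throughout Thy replicate 2, and those 3 models called 61.7% to 68.7% of the ND5 alleles tested for Thy. C12947T, synonymous in codon 402, had 1.15% and 0.423% in CD29 replicates 2 and 1, against means of 0.103% and 0.133% in the others, and was also above all of them (edgeR adjusted p = 0.985). C12074T, synonymous in codon 111, had 0.184% and 1.01% in CD24_CD29 replicates 2 and 1, against means of 0.0482% and 0.0557% in the others, again above all (edgeR adjusted p = 0.387, and 0.00112 with DESeq2, and called by the other 2 models). These 3 alleles reached 1%, and so entered the tests, only in 1 library of the subset named. Their place above the others and any calls by other models are thus no independent support for a subset difference. In these 3 the 2 replicates of the subset themselves differed by a factor of more than 2. For T12427C (L229P), Thy_6C3 cells were below all others, at 0.0895% and 0.255% in replicates 2 and 1, against means of 0.424% and 0.528% (edgeR adjusted p = 1). C13084T for CD45, A12265G for 6C3, A12067G for CD105 and C12581T for CD24 had edgeR adjusted p of 0.978 to 1.

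The transition load of ND5, the mean over its positions of the summed fraction of A>G, G>A, C>T and T>C changes, was highest in 6C3 cells, at 0.196% ± 0.0148, and then in CD29 cells, at 0.169% ± 0.0223 (SD, n = 2 each). Thy cells had 0.145% ± 0.0236, CD45 cells 0.141% ± 0.00170, CD105 cells 0.133% ± 0.0100, CD24 cells 0.131% ± 0.0104, CD24_CD29 cells 0.131% ± 0.00318 and Thy_6C3 cells 0.131% ± 0.00396 (SD, n = 2 each). In this order the libraries of neighbouring subsets overlapped, except those of 6C3 and CD29 cells, whose nearest values were 0.186% and 0.184%. This load counts transition bases at any fraction, so it includes sequencing errors, which it cannot tell apart from mutations. In the 15 libraries without Thy replicate 2, counted alleles of every kind gave a load of 0.0108% to 0.0502%, against a transition load of 0.124% to 0.207%. Subsets held 83.6% of the variance of the transition load. The exact permutation p over all pairings of the 16 libraries was 0.0232, one-sided, and 0.128 after adjustment over 76 tests of genes and load measures, so the difference did not pass. Counting only alleles under 1%, it passed, with 90.2% of the variance (adjusted exact permutation p = 0.0210), and also without Thy replicate 1 (89.2%, adjusted 0.0270) and without both Thy libraries (89.0%, adjusted 0.0310).

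In the rest of mitochondrial DNA the 4 subsets with the highest means came in the same order, 6C3, CD29, Thy and CD45, while the other 4, close together in both, did not. Its transition load was 1.02 to 1.09 times that of the rest in replicate 2 libraries, against 0.952 to 1.01 times in replicate 1 libraries. C11959T alone added 0.0102% to 0.0137% to the load of each replicate 2 library. The whole load, which counts every non-reference base and so includes sequencing errors of every kind, was 1.14% in Thy replicate 2, against 0.397% to 0.485% in the other 15 libraries. Subsets held 49.2% of its variance (adjusted exact permutation p = 0.432). Without Thy replicate 1, which leaves Thy replicate 2 as the only Thy library, they held 99.8% (adjusted exact permutation p = 0.00313). Without Thy replicate 2 they held 93.5% (adjusted exact permutation p = 0.0480), with CD24 cells lowest, at 0.400% ± 0.00424, and 6C3 cells highest, at 0.479% ± 0.00863, next to CD24_CD29 cells at 0.477% ± 0.00820 (SD, n = 2 each).

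**Figure D5:**
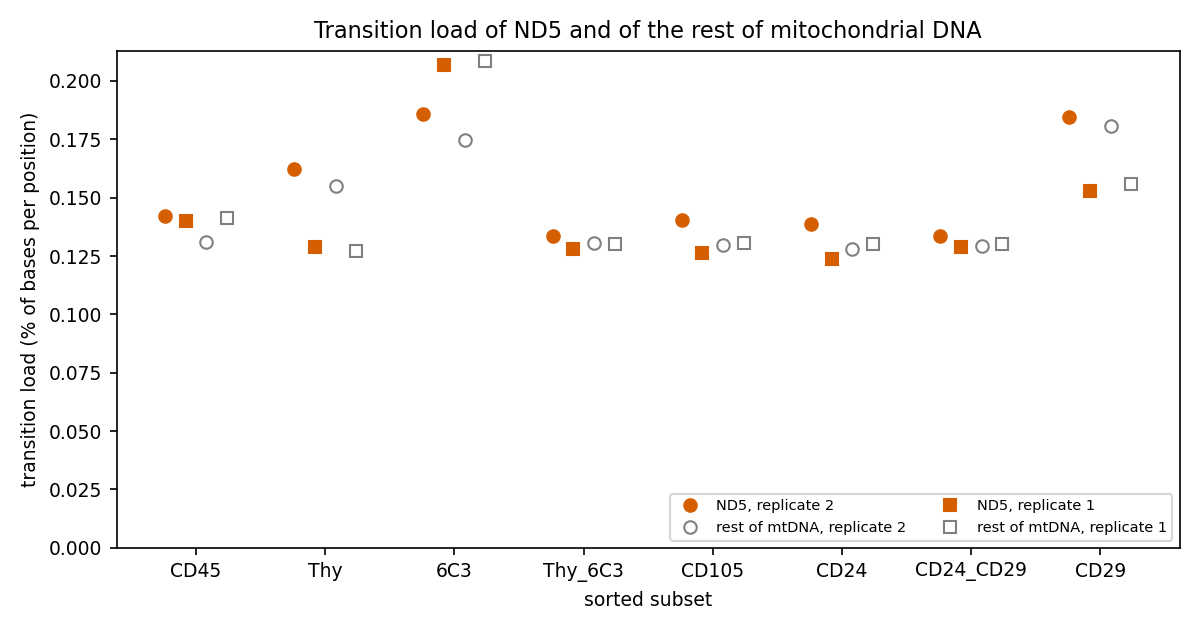
Transition load in percent of bases per position in the 8 sorted subsets, for ND5 (filled) left of the rest of mitochondrial DNA (open), with circles for replicate 2 and squares for replicate 1. The 6C3 libraries of ND5 lie at 0.186% and 0.207% and the CD29 libraries at 0.184% and 0.153%, and the open symbols are likewise highest for 6C3 and then CD29 cells.

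In number of alleles, ND5 was near the rest of the genome. In the 15 libraries without Thy replicate 2, 72.9 alleles per kb were counted in ND5, against 68.9 per kb elsewhere, and among the 13 protein genes it ranked 6th per kb. The other complex I genes ran from 55.9 per kb (ND2) to 83.3 per kb (ND3). ND5 held 4 of the 59 alleles of the genome counted in all 8 libraries of replicate 2 (6.78%) and 5 of the 53 of replicate 1 (9.43%), against 11.1% of its positions. Per kb this was 2.21 and 2.76, and ND5 ranked 8th of 13 in both. S73L, at a mean of 22.4% ± 1.97 (SD, n = 8) in replicate 2, was the highest among the 13 protein genes in that number, where the next was C14024T in ND6 at 9.10%. In replicate 1 the highest ND5 mean was 3.39%, against 18.4% for C10658T in ND4 and 17.8% for G3079A in ND1. Along the gene, the 5 equal stretches of about 121 codons held 31, 22, 25, 27 and 27 of the 132 alleles, and 12, 7, 3, 11 and 6 of the 39 counted in at least 2 libraries.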

How the data were processed

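The 16 libraries are bulk ATAC-seq, in which Tn5 cuts and tags DNA, sequenced as paired reads of 100 bp per the labels' protocols. The deposited tables hold whole-number counts that the authors did not normalize: a coverage per mitochondrial position, and a count for every other base seen at it. Per the submitters' processing notes, the tools were BWA 0.7.17, cutadapt 2.10 and bcl2fastq 2.20, and the builds mm10 and GRCm38. Not given in the sources used here are quality filters, duplicate removal and how nuclear copies of mitochondrial DNA were treated. Each can change a low fraction. The 16 columns of each table carry the sample titles, and 0 columns were left unmapped.

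Gene limits came from the RefSeq annotation of GRCm38.p6 and bases from the deposited reference column. Differences per allele were tested with edgeR 4.0.16 (R 4.3.3; glmQLFit and glmQLFTest) on paired columns, 1 of reference and 1 of non-reference counts for each library. Libraries had a term each, and subsets a term each in the non-reference columns (8 residual degrees of freedom), with a term for the replicate number in that comparison (7 left). Alleles at 1% or more with at least 5 counts in at least 1 library were tested, and p-values were adjusted by the Benjamini-Hochberg method over all of them, at 0.05. Load, as defined in the text, was compared between subsets by an exact permutation test over all pairings of libraries, for every gene and the control region. DESeq2 1.42.0, a quasi-binomial model, a coverage offset, other thresholds and leaving out libraries were alternatives. The edgeR fit on paired columns and the permutation test were first tried on simulated data, which held no library like Thy replicate 2. The alternative models were not. The rest ran in Python 3.11.15 with scipy 1.17.1, numpy 2.4.6, matplotlib 3.10.9 and pandas 2.3.3.

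The labels number the libraries 1 and 2 in every subset. The difference of replicate 2 from replicate 1 correlated between all 28 pairs of subsets, from 0.343 to 0.863 with a median of 0.659. The main tests between subsets did not take up this pairing, which was added only in an alternative, the replicate block. The block left the number of ND5 alleles called between subsets at 0. An unadjusted edgeR p under 0.05 was then found for 31 ND5 alleles for CD24_CD29 (7.42%, against 8.14% of all), where the main test had 23. For CD29 it was found for 14 (3.35%, against 1.63%), where the main test had 7, and over all subsets for 12 (2.87%, against 3.13%), where it had 4.

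Named alleles are the 5 with the highest mean in each replicate number, the 10 called with the largest difference between the numbers, the smallest p of each subset contrast, the highest allele counted in 1 library of its number, stop or start changes counted in at least 2 libraries, and alleles counted in all 8 libraries of both numbers. Neighbouring alleles in the printed sequences are given for their place alone. The members, rules and lists were chosen with earlier results of these data known.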

Additional observations from a re-analysis of the deposited data

Results flagged for a closer look

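A single library stood far from the other 7 of its replicate number in 8 ND5 measures, where its gap to the nearest other library, over the range of the 8, was above Dixon's 95% critical value. Chance alone does this in about 1 of 20 such groups, and 23 groups were tested. Thy replicate 2 was the library in 4 of them: it had 302 counted ND5 alleles, against at most 42 in the other replicate 2 libraries, and a whole load of 1.14%, against at most 0.482%. It was also highest for A12186C (I149L), at 3.38% against at most 1.13%, and for the stop allele G11919T (E60*), at 1.5% against at most 0.906%. CD24_CD29 replicate 1 had 38 counted alleles, against at most 19 in the other replicate 1 libraries, and 3.75% of the stop allele A13380T (K547*), against at most 1.66%. CD24 replicate 1 had 2.88% of A13011C (M424L), against at most 1.62%. CD29 replicate 1 had a mean ND5 coverage of 92140, against at most 44229 in the other replicate 1 libraries.

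In the 14 bases that ND5 shares with ND6, which were left out of the report, 3 alleles were counted, all in Thy replicate 2. The highest was A13565C, at 1.63%.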

How the results depend on the processing

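For replicate 2 against replicate 1, 27 ND5 alleles were called, and 18 to 29 under the alternatives other than a 2% threshold, which left 8. Leaving out 1 library each time gave 19 to 27. The ND5 share called was 0.742 to 1.14 times that of all alleles under these alternatives. Of the named calls, 257 of 271 values kept their side of the threshold, 14 lost it, nearly all of them for C11889T, and 0 reversed. Between subsets 0 ND5 alleles were called. Over all 8 subsets, DESeq2 called 1 (0.239%, against 0.516% of all). For Thy, DESeq2 called 258, the quasi-binomial model 267 and the coverage offset 287, or 61.7% to 68.7%, against 58.1% to 66.4% of all. Most ND5 alleles had entered these tests only through Thy replicate 2. For Thy_6C3 the offset called 1 (0.239%, against 0.115%), for CD29 the quasi-binomial model 1 (0.239%, against 0.086%), and for CD24_CD29 DESeq2 called 5, the quasi-binomial model 1 and the offset 17 (0.239% to 4.07%, against 0.258% to 4.22%). Leaving out 1 library each time gave 0 to 284 over all subsets, 0 to 290 for Thy and 0 to 22 for CD24, the highest each without Thy replicate 1, and 0 for the others, and ND5 shares were again near those of all alleles. The cause was not tested. With the replicate block, which pairs libraries of a number, the calls stayed at 0, subsets held 88.0% of the variance of the transition load (adjusted exact permutation p = 0.123) and 52.7% of the whole load (0.330), and no call changed.

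The share of variance between subsets was 83.6% for the transition load, and 90.2% for alleles under 1% alone and 89.0% without both Thy libraries, where it passed; leaving out 1 library each time gave 76.4% to 89.4%. For the whole load it was 49.2%, and 93.4% without both Thy libraries, where it passed; leaving out 1 library each time gave 48.1% to 99.8%, the highest without Thy replicate 1 (adjusted exact permutation p = 0.00313). Alleles counted in all 8 libraries numbered 18 in replicate 2 and 20 in replicate 1 at a threshold of 0.5%, and 1 in replicate 1 at 2%. Leaving out 1 library each time kept these numbers at 4 and 5. At 1% of the mean coverage an ND5 allele had 921 counts in the deepest library and 76 in the shallowest, and a count of 0 there allows up to 0.0395%.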

Other observations

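Over all ND5 sites, counted or not, C>A and G>T changes had higher mean fractions than C>T changes, although few of them reached 1%. C>A averaged 31.7 ± 9.17 per 10000 in replicate 2 libraries and 29.7 ± 2.77 in replicate 1 libraries, and G>T averaged 32.0 ± 9.99 in replicate 2 and 29.9 ± 2.85 in replicate 1 (SD, n = 8 each). C>T averaged 15.1 ± 0.968 per 10000 in replicate 2 and 12.6 ± 1.32 in replicate 1 (SD, n = 8 each). Yet in the 15 libraries without Thy replicate 2, 36 C>T alleles were counted, against 8 C>A and 2 G>T alleles. Both G>T alleles were stop alleles, G11919T among them. Outside ND5 the mean C>A fraction was 32.1 per 10000 in replicate 2 and 30.3 in replicate 1.

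T13052C, synonymous in codon 437, lies outside the rule for named alleles and was chosen after its values were seen. It was counted in 5 libraries of replicate 2 and 6 of replicate 1, at means of 1.08% and 1.27%.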
